A study of Mus musculus with 12 samples.

Results

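The 82 gene rows described here are the nuclear genes named for subunits of the 5 oxidative phosphorylation complexes, out of 32531 gene rows in the count tables. They were chosen by symbol alone: the Nduf genes ending in a, b, c, s or v and a number (complex I, 36 rows), Sdha to Sdhd (complex II, 4 rows), Cyc1 and the Uqcr genes (complex III, 9 rows), the Cox4i, Cox5, Cox6, Cox7 and Cox8 genes without Cox6a2 (complex IV, 16 rows), and the Atp5 genes (complex V, 17 rows). The symbols bring in a pair of genes, Atp5s and Atp5sl, whose products are not known as subunits of the ATP synthase, and they place Ndufa4 with complex I although its product is today counted with complex IV. Subunits encoded by mitochondrial DNA were not analysed here.

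The samples came from adult Slc17a6-EGFP/Rpl10a transgenic mice of the line JX883, in which the ribosomal protein Rpl10a carries an EGFP tag under the control of Slc17a6, the gene of the vesicular glutamate transporter VGLUT2. Hypothalamus and midbrain were dissected, tagged polysomes were captured with antibodies against EGFP, and the RNA bound to them (IP) was sequenced beside RNA of the whole tissue (input). This gave 4 groups of 3 libraries, 12 in all: hypothalamus IP, hypothalamus input, midbrain IP and midbrain input. All groups, the inputs included, came from the tagged line, and an IP from mice without the tag was not analysed here. Whether a library held 1 animal or a pool, and the age and sex of the mice beyond their being adult, are not known here. All IP libraries carried 1 sequencing index and all inputs another, so fraction and index cannot be told apart.

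Oxidative phosphorylation makes most of the ATP of a neuron in the inner mitochondrial membrane. Complexes I and II pass electrons from NADH and succinate to ubiquinone, complex III hands them to cytochrome c, complex IV passes them to oxygen, and complex V uses the proton gradient built by complexes I, III and IV to make ATP. Nearly all of their subunits are encoded in the nucleus, translated in the cytosol and imported, and their genes are known to share promoter elements bound by nuclear respiratory factor 1 (NRF1), by ETS factors such as GABP, and by YY1.

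Promoters of 68 of the 82 genes were found in RefSeq sequences of the GRCm38.p6 build, which span 250 bases before to 50 bases after each start and gave 74 promoters. Both strands were searched for 3 patterns. The NRF1 pattern has 1 free base, filled by T in Ndufa11 and by G in Cox6a1, as capitalised below. With any base there, it was present in 24.3% of these promoters and in 4.60% of all 32851 mouse promoters. CCGGAAG (ETS) was present in 21.6% and 8.86%, and GCCATNTTG (YY1) in 17.6% and 2.51%. At least 1 of the 3 was in 55.4% of the subunit promoters and in 14.5% of all promoters. A match of letters is a description of the sequence and not a bound site. The stretches printed below show 1 match per complex, in genes whose levels are given further on, and they were picked after their values were known. Each ends just before the outermost annotated start, runs 5′ to 3′ on the strand of the gene, and has the match in capitals: the NRF1 pattern in Ndufa11 (complex I, chr17:56717686-56717761, plus strand) and Cox6a1 (complex IV, chr5:115348982-115349081, minus strand), and the ETS pattern in its reverse complement in Sdhd (complex II, chr9:50603850-50603909, minus strand), Uqcrh (complex III, chr4:116075072-116075171, minus strand) and Atp5e (complex V, chr2:174464106-174464205, minus strand).
Ndufa11: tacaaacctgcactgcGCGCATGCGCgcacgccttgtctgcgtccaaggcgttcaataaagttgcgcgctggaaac
Sdhd: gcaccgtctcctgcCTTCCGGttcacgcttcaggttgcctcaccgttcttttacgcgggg
Uqcrh: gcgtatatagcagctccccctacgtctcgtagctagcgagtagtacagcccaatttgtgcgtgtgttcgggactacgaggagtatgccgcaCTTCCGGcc
Cox6a1: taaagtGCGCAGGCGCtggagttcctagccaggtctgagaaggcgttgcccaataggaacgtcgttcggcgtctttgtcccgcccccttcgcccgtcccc
Atp5e: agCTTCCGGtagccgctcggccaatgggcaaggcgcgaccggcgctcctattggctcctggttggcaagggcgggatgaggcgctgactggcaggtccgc

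The libraries held between 41909019 and 55148109 counts over genes. The 82 genes took 1.22% to 1.77% of the counts in hypothalamus IPs against 0.877% to 1.10% in hypothalamus inputs, and 1.24% to 1.69% in midbrain IPs against 0.997% to 1.15% in midbrain inputs. The libraries numbered 1 stood apart: their IPs had 12.3% and 12.5% of counts on the ribosomal RNA row Rn45s against 5.21% to 6.85% in the other IPs, and 16.2% and 15.1% of the reads of their inputs were ambiguous between genes against 4.03% to 9.30% in the other inputs. Slc17a6 itself was 6.07-fold higher in the IP than in the input of the hypothalamus and 3.53-fold higher in the midbrain, with no overlap between the 3 libraries of each group. Of 10 general neuron markers 7 rose in the IP of the hypothalamus and 3 in that of the midbrain, while all 3 GABAergic, all 7 astrocyte, all 7 oligodendrocyte and all 7 microglia markers were lower in both. The summed level of the oligodendrocyte markers, for example, lay between 179 and 201 CPM (counts scaled to library size) in hypothalamus IPs and between 2240 and 3072 CPM in the inputs, and C1qa, Cldn5 and Slco1a4, markers of microglia and vessels, were at 0 in every hypothalamus IP. The part of cell composition in the differences below was not tested, and in bulk tissue fewer cells of a type and less RNA per cell cannot be told apart.

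Subunit transcripts were more abundant in the RNA bound to tagged ribosomes than in whole tissue in both regions. In the hypothalamus 61 of the 81 subunit genes tested rose in the IP and 0 fell, where 14.2% of all 18128 genes tested rose and 19.6% fell. In the midbrain 54 of 81 rose and 0 fell, where 14.0% of all genes rose and 19.9% fell. These calls rest on edgeR's quasi-likelihood test with a Benjamini-Hochberg adjusted p under 0.05 over all genes. The median log2 fold change of the subunit genes was 1.18 in the hypothalamus, a 2.26-fold difference, and 0.92 in the midbrain, a 1.90-fold difference, against −0.08 and −0.05 over all genes. No subunit gene was lower in an IP at an unadjusted p under 0.05 either (0 of 81 in both regions), where 4473 and 4517 of all 18128 genes were. DESeq2's Wald test called 1 lower in the hypothalamus, Atp5g2, and 0 in the midbrain, where it called 21.6% and 22.6% of all genes lower. Each p-value rests on the variation among libraries within the 4 groups, estimated together from all 12 libraries. Because no source says that the libraries came from separate animals, this variation may be technical. All 3 IPs lay above all 3 inputs for 59 of 81 genes in each region, against 19.7% of all genes in the hypothalamus and 21.1% in the midbrain. The 61 and 54 genes that rose all averaged at least 5 CPM, a level reached by 74 of the 81, so the 7 weakest genes gave no call. Without the 4 libraries numbered 1, an alternative chosen after seeing the data, 63 genes rose in the hypothalamus and 62 in the midbrain, against 14.3% and 14.2% of all genes.

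**Figure D1:**
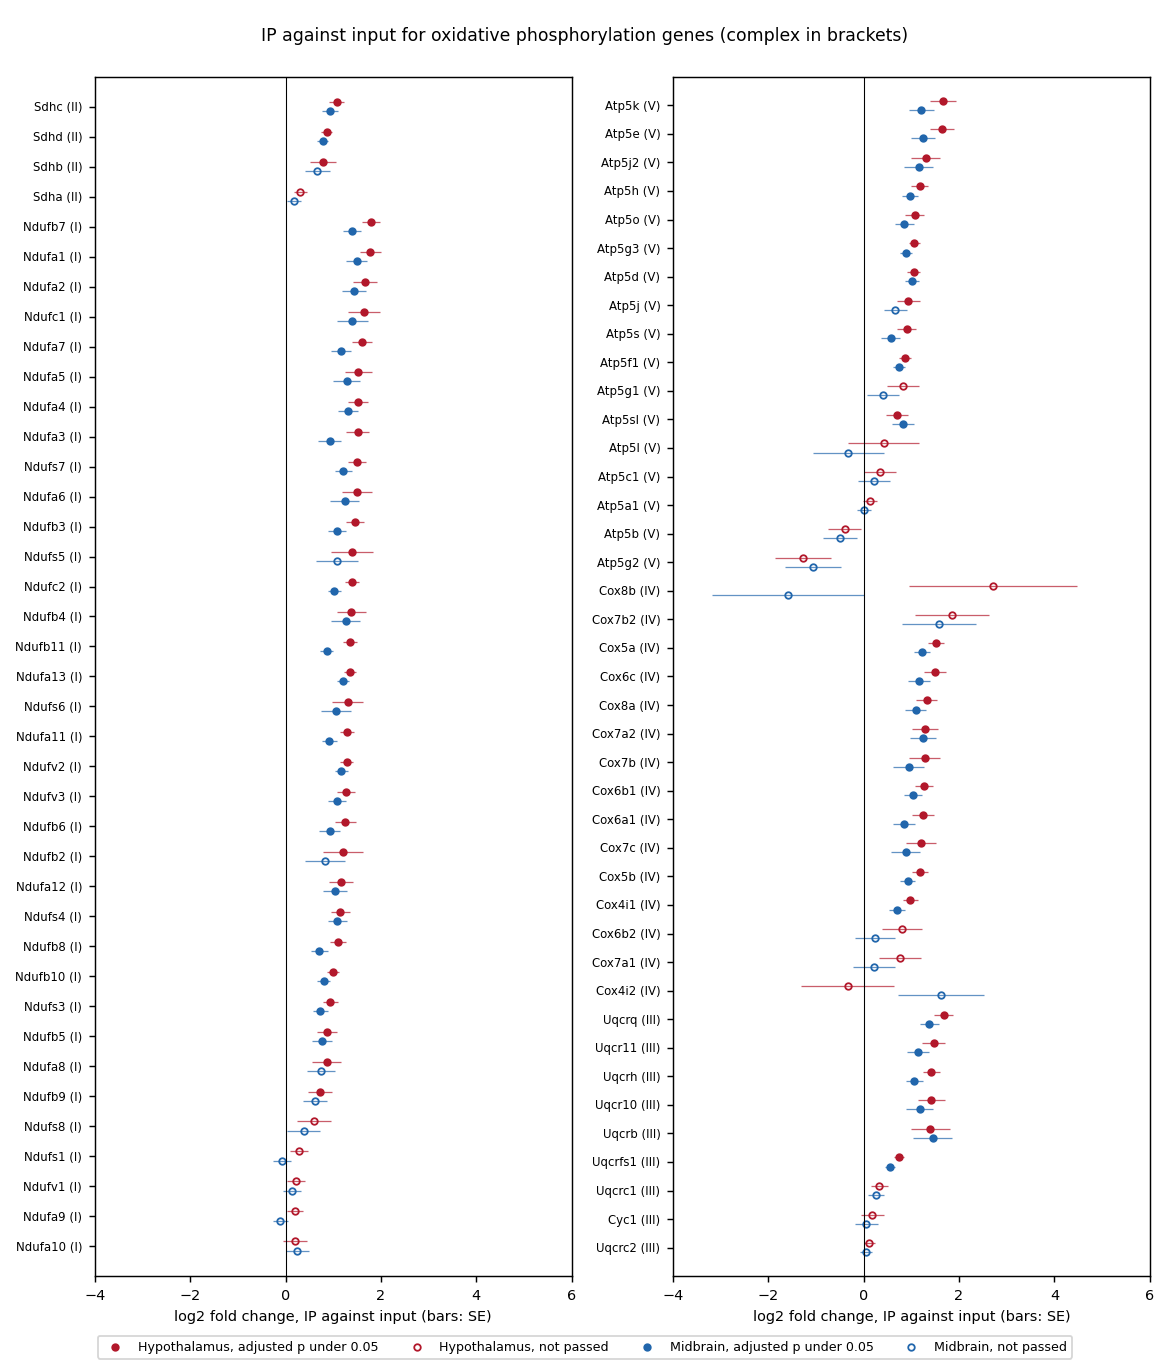
The log2 fold change of IP against input (horizontal axis, bars show the standard error of the fit) is drawn for the genes tested except 1 that is not reported here, with the complex in brackets. Red points are the hypothalamus and blue points the midbrain, filled where the adjusted p was under 0.05: most points of every complex lie right of 0, with Atp5b and Atp5g2 on the left in both regions and wide errors for the weakest genes such as Cox8b.

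Complex I is the largest of the 5, with a set of core subunits that carry the flavin, the iron-sulfur clusters and the quinone site, and many accessory subunits around them. In the hypothalamus 31 of its 36 genes rose (median log2 fold change 1.28) and in the midbrain 26 of 36 (median 1.03). The difference was uneven between the kinds of subunit. Of 29 accessory genes 27 rose in the hypothalamus with a median of 1.35 and 23 in the midbrain with a median of 1.06, while of the 7 core genes coded in the nucleus 4 and 3 rose, with medians of 0.60 and 0.38. Transcripts of the accessory genes span 382 to 2413 bases and those of the core genes 870 to 2626 bases, and the part of length in this was not tested. Ndufb7, an accessory subunit of the membrane arm, had 147, 134 and 115 CPM in the 3 hypothalamus IPs and 30.6, 36.7 and 47.1 CPM in the inputs. Every IP exceeded every input, with a log2 fold change of 1.79 ± 0.19 (SE) at an adjusted p of 4.12e-05. Midbrain Ndufb7 had 119, 109 and 108 CPM in the IPs and 33.6, 47.7 and 45.8 CPM in the inputs, and rose by 1.40 ± 0.19 (SE) on the log2 scale at an adjusted p of 0.000203. Ndufa1, another small accessory subunit of the membrane arm, led in the midbrain with 1.49 ± 0.22 (SE, adjusted p = 0.000381), with 101 ± 14.5 CPM in midbrain IPs against 36.1 ± 7.37 CPM in inputs (SD, n = 3).

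At the other end stood Ndufa10 and Ndufa9, which are among the larger accessory subunits. Ndufa10 had 111, 201 and 226 CPM in the hypothalamus IPs and 149, 157 and 166 CPM in the inputs, so the groups overlapped, with the IP numbered 1 below every input (log2 fold change 0.19 ± 0.25 SE, adjusted p = 0.595). In the midbrain its change was 0.25, and it passed there without the libraries numbered 1 (0.47, adjusted p = 0.0380). Ndufa9 had 128, 166 and 181 CPM in the midbrain IPs and 188, 168 and 158 CPM in the inputs, again overlapping (−0.11 ± 0.16 SE, adjusted p = 0.619). Ndufa4, the most abundant gene of the complex I rows per kilobase of transcript, had 365, 472 and 510 CPM in the hypothalamus IPs against 117, 176 and 176 CPM in the inputs. Its midbrain values were 433, 523 and 543 CPM in the IPs and 155, 242 and 214 CPM in the inputs, and it rose by a log2 fold change of 1.52 and 1.30 with groups well apart. Ndufa11, whose promoter stretch is printed above, went from 58.4 ± 4.14 CPM in the hypothalamus input to 142 ± 4.81 CPM in the IP (SD, n = 3) and rose in both regions, by a log2 fold change of 1.29 and 0.92.

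Among the core genes, Ndufs7 and Ndufv2 behaved like most accessory genes. Ndufs7, which carries an iron-sulfur cluster next to the quinone site, had 254, 204 and 187 CPM in hypothalamus IPs against 71.5, 73.3 and 83.0 CPM in inputs (log2 fold change 1.50 ± 0.18 SE, adjusted p = 9.91e-05). Its midbrain change was 1.21 ± 0.18 (SE, adjusted p = 0.000422). Ndufv2, an iron-sulfur subunit of the NADH-binding part, rose by 1.28 ± 0.14 (SE, adjusted p = 6.41e-05) and 1.17 ± 0.14 (SE, adjusted p = 0.000115). Ndufs3 rose by 0.94 in the hypothalamus and 0.73 in the midbrain. The largest core subunit gene, Ndufs1, had 108, 78.3 and 78.2 CPM in the hypothalamus IPs and 85.6, 64.9 and 66.3 CPM in the inputs, overlapping values whose fitted change was 0.29 ± 0.19 (SE) at an adjusted p of 0.265. Its midbrain change stood at −0.07 ± 0.19 (SE, adjusted p = 0.820). Ndufv1, the flavin-binding subunit, had log2 fold changes of 0.22 and 0.14, and Ndufs8 of 0.60 and 0.38, none of them past the threshold. With the replicate number as a block, Ndufs8 passed in the hypothalamus (0.52, adjusted p = 0.0240), and without the libraries numbered 1 it passed in both regions (0.77, adjusted p = 0.00158, and 0.49, adjusted p = 0.0172).

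Complex II, succinate dehydrogenase, is also an enzyme of the tricarboxylic acid cycle and is wholly encoded in the nucleus. The calls differed among its 4 genes: both membrane anchors rose in both regions, the iron-sulfur subunit Sdhb rose in the hypothalamus (0.78, adjusted p = 0.0410) with a midbrain value that did not pass (0.67, adjusted p = 0.0717), and the flavoprotein Sdha passed in neither. The Sdhb estimates lay near those of the anchor Sdhd (0.86 and 0.78), with a larger SE (0.27 against 0.11). Differences between subunits were not tested. The difference between regions was not past the threshold for any of the 4 genes. The Sdhb call in the hypothalamus stood in 8 of 16 settings, and in the midbrain Sdhb passed without the libraries numbered 1 (0.72, adjusted p = 0.00375). Sdhc, an anchor, had 235, 203 and 164 CPM in the hypothalamus IPs and 96.7, 90.2 and 99.4 CPM in the inputs, and 243, 175 and 189 CPM against 107, 105 and 107 CPM in the midbrain. The groups did not overlap, with log2 fold changes of 1.07 ± 0.16 (SE, adjusted p = 0.000381) and 0.93 ± 0.16 (SE, adjusted p = 0.000959). Sdhd, the other anchor and the most abundant of the 4 genes per kilobase, had 225, 263 and 252 CPM against 129, 143 and 135 CPM in the hypothalamus and rose by 0.86 there and by 0.78 in the midbrain. Sdha had 405, 528 and 521 CPM in the hypothalamus IPs and 360, 388 and 421 CPM in the inputs. One IP lay among the inputs, and the log2 fold change was 0.31 ± 0.14 (SE, adjusted p = 0.106), with 0.18 ± 0.14 in the midbrain (SE, adjusted p = 0.350). In the hypothalamus Sdha passed with the replicate number as a block (0.31, adjusted p = 0.0176) and without the libraries numbered 1 (0.38, adjusted p = 0.0238).

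Complex III showed the widest split between kinds of subunit. The 5 small subunit genes, Uqcrq, Uqcrh, Uqcrb, Uqcr10 and Uqcr11, all rose in both regions, with medians of 1.42 and 1.17. Of the 4 others, namely the core proteins Uqcrc1 and Uqcrc2 and the catalytic cytochrome c1 (Cyc1) and iron-sulfur protein (Uqcrfs1), Uqcrfs1 alone rose, and their medians were 0.26 and 0.16. The small subunit genes have transcripts of 434 to 535 bases and the 4 others of 1363 to 1896 bases. Kind of subunit and transcript length therefore cannot be told apart in this complex. Uqcrq had 183, 187 and 179 CPM in the hypothalamus IPs and 42.9, 59.5 and 69.5 CPM in the inputs, with 197, 175 and 162 CPM against 51.4, 84.5 and 70.6 CPM in the midbrain. The lowest IP was more than any input in both regions, and Uqcrq rose by 1.68 ± 0.20 (SE, adjusted p = 0.000106) and 1.37 ± 0.20 (SE, adjusted p = 0.000398). Uqcrh, the hinge protein and the most abundant gene of this complex per kilobase, had 493, 457 and 474 CPM in hypothalamus IPs against 132, 184 and 216 CPM in inputs and rose by 1.42 and 1.06. Uqcrb, a ubiquinone-binding subunit, was weaker, with 19.1 ± 5.96 CPM in the hypothalamus IP and 7.24 ± 2.83 CPM in the input (SD, n = 3), and rose by 1.40 and 1.45. Uqcrc2 had 156, 201 and 187 CPM in hypothalamus IPs and 166, 170 and 166 CPM in inputs, overlapping, and its fitted change was 0.12 ± 0.12 (SE) at an adjusted p of 0.503. Cyc1 had 108, 127 and 156 CPM in midbrain IPs and 121, 135 and 121 CPM in inputs, also overlapping (0.05 ± 0.24 SE, adjusted p = 0.897).

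**Figure D2:**
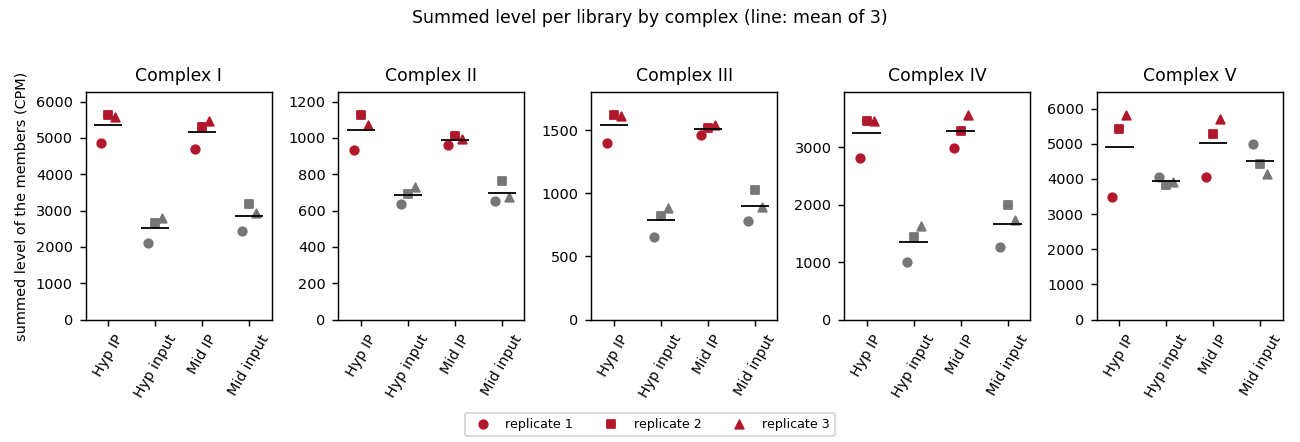
Summed level of the genes of each complex in CPM (vertical axis, from 0) in the 12 libraries, with IPs in red, inputs in grey, a symbol for each replicate number and a line at the mean of 3. For complexes I to IV every IP lies above every input of its region, while for complex V the IPs numbered 1 (3501 and 4054 CPM) lie below the inputs numbered 1 (4068 and 4982 CPM).

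Complex IV, cytochrome c oxidase, has its catalytic subunits encoded in mitochondria and the surrounding ones in the nucleus. Of 15 nuclear genes tested 10 rose in each region, with medians of 1.27 and 0.94, and the same 10 genes were called in both: Cox4i1, Cox5a, Cox5b, Cox6a1, Cox6b1, Cox6c, Cox7a2, Cox7b, Cox7c and Cox8a. These are the isoforms found in most tissues. In the midbrain the Cox7b call stood in 7 of 16 settings and the Cox7c call in 8, and that of Cox4i1 was lost with the length offset (0.37, adjusted p = 0.0502). Cox5a had 421, 363 and 360 CPM in the hypothalamus IPs and 108, 141 and 150 CPM in the inputs, and 380, 340 and 372 CPM against 124, 183 and 162 CPM in the midbrain. No input came near an IP, and Cox5a rose by 1.52 ± 0.17 (SE, adjusted p = 5.44e-05) and 1.22 ± 0.17 (SE, adjusted p = 0.000223). Cox7a2 had the highest midbrain change of the complex among genes of at least 5 CPM, 1.25 ± 0.27 (SE, adjusted p = 0.00387), and 1.29 in the hypothalamus. Cox6a1, the most abundant gene of the complex per kilobase, had 350, 513 and 578 CPM in hypothalamus IPs against 157, 200 and 250 CPM in inputs and rose by 1.25 and 0.85. Cox4i1, a nuclear subunit known for binding ATP, was the least changed of the 10, with 507, 617 and 567 CPM against 237, 289 and 332 CPM in the hypothalamus (0.98 ± 0.16 SE, adjusted p = 0.000883) and 536, 587 and 602 CPM against 296, 436 and 332 CPM in the midbrain (0.70 ± 0.16 SE, adjusted p = 0.00641).

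Complex V, the ATP synthase, consists of a catalytic F1 head on a central stalk, a ring of c subunits in the membrane, a peripheral stalk and small membrane subunits. In the hypothalamus 11 of its 17 genes rose (median 0.90) and in the midbrain 10 of 17 (median 0.74). The parts differed: all 4 peripheral stalk genes rose in the hypothalamus and 3 of 4 in the midbrain, where Atp5j did not pass (0.66, adjusted p = 0.0507) but did in 6 of 16 settings, among them without the libraries numbered 1 (0.57, adjusted p = 0.00299), while 2 of the 5 genes of the head and central stalk rose in each region. Those were Atp5d and Atp5e, the small subunits of the central stalk. Atp5e had 172, 220 and 254 CPM in hypothalamus IPs and 47.8, 73.3 and 84.1 CPM in inputs, and rose by 1.65 ± 0.25 (SE, adjusted p = 0.000489) and, in the midbrain, 1.25 ± 0.25 (SE, adjusted p = 0.00267). Atp5k, a small membrane subunit, had 174, 169 and 187 CPM in hypothalamus IPs and 35.6, 64.6 and 67.8 CPM in inputs and rose by 1.66 ± 0.27 (SE, adjusted p = 0.000645) and 1.21 ± 0.26 (SE, adjusted p = 0.00426). Of the genes that are not subunits, Atp5s rose by 0.90 and 0.57 and Atp5sl by 0.69 and 0.83. The midbrain call of Atp5s stood in 7 of 16 settings and the hypothalamus call of Atp5sl in 7 of 14.

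The 3 large genes of the F1 head passed in neither region. The catalytic subunit Atp5b, the most counted of all 82 genes, had 666, 1743 and 1961 CPM in the hypothalamus IPs and 2273, 1749 and 1755 CPM in the inputs. In the midbrain it had 1073, 1731 and 2038 CPM in the IPs and 2997, 1995 and 1858 CPM in the inputs. The IP numbered 1 was far below its input in both regions and the other 2 pairs were nearly level: the log2 differences between IP and input of the same number were −1.77, −0.01 and 0.16 in the hypothalamus and −1.48, −0.20 and 0.13 in the midbrain. The fitted changes were −0.40 ± 0.35 (SE, adjusted p = 0.406) and −0.50 ± 0.35 (SE, adjusted p = 0.295). Atp5c1, the rotor subunit, had 147, 365 and 432 CPM against 203, 272 and 269 CPM in the hypothalamus, with the same low IP numbered 1, and a change of 0.34 ± 0.34 (SE, adjusted p = 0.473). Without the libraries numbered 1, Atp5c1 rose by 0.56 (adjusted p = 0.00513) in the hypothalamus and 0.40 (adjusted p = 0.0272) in the midbrain. Atp5a1 had 670 ± 103 CPM in the hypothalamus IP and 614 ± 13.2 CPM in the input (SD, n = 3), a change of 0.13, and 0.00 in the midbrain.

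**Figure D3:**
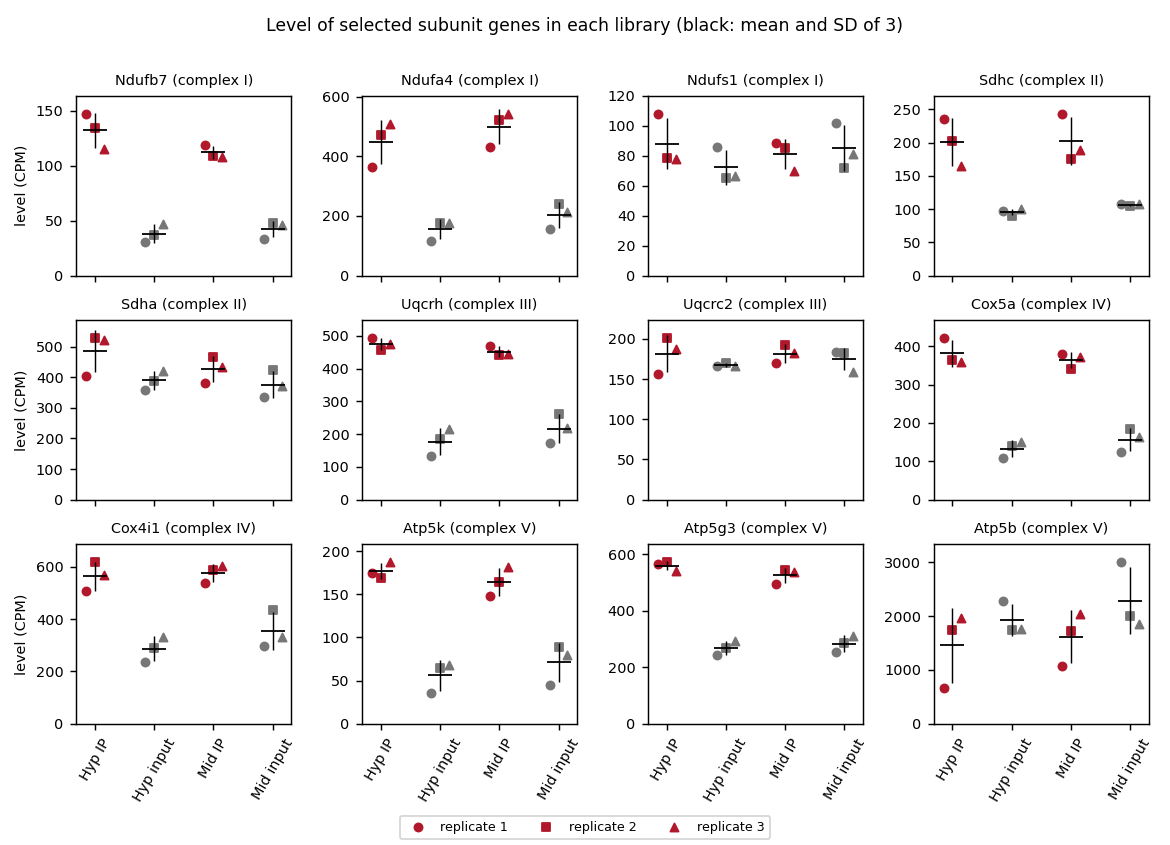
Level of 12 subunit genes in CPM (vertical axes, from 0) in each library, with IPs in red, inputs in grey, a symbol for each replicate number, and the mean and SD of 3 in black. Ndufb7, Ndufa4, Sdhc, Uqcrh, Cox5a, Cox4i1, Atp5k and Atp5g3 show no overlap between IP and input in either region, whereas Ndufs1, Sdha, Uqcrc2 and Atp5b overlap, the last with its lowest values in the IPs numbered 1 (666 and 1073 CPM).

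All 3 replicate numbers gave a median above 0. The median log2 difference between IP and input of the same number over the 81 genes was 1.29, 1.21 and 1.08 in the hypothalamus and 1.05, 0.71 and 0.95 in the midbrain, against −0.12 to −0.08 and −0.06 to −0.04 over all genes. The difference was above 0 for 69, 78 and 79 genes in the hypothalamus and for 70, 74 and 76 genes in the midbrain. Over all 18128 genes it was above 0 for 8157, 8408 and 8363 in the hypothalamus and for 8608, 8604 and 8525 in the midbrain. For the core genes of complex I the pairs numbered 1 were lowest, with medians of 0.34, 0.83 and 0.64 in the hypothalamus and 0.04, 0.35 and 0.61 in the midbrain. The median of the 5 F1 head and central stalk genes was below 0 in the pairs numbered 1 and above 0 in the others, with values of −0.15, 0.42 and 0.68 and of −0.29, 0.28 and 0.51.

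Genes that differed little between IP and input were mostly those with long transcripts. Over the 73 genes of at least 5 CPM with a transcript length in GENCODE, the log2 fold change fell with log2 length, with Pearson's r of −0.752 and Spearman's rho of −0.756 in the hypothalamus and −0.725 and −0.679 in the midbrain. This is a description across genes, which share the same 12 libraries and are not independent replicates. Over all 15703 genes tested with a length the relation was weaker, with rho of −0.214 and −0.169. The subunit transcripts are short, with a median of 748 bases against 2641 over all genes. All 37 subunit genes under 750 bases rose in the hypothalamus and 34 in the midbrain, with medians of 1.39 and 1.07, whereas 208 and 182 of 749 genes of that length rose in all, with medians of 0.44 and 0.29. From 750 to under 1500 bases 17 and 15 of 20 subunit genes rose, against 666 and 607 of 2460 genes of that length in all. At 1500 bases and over 6 and 4 of 16 rose, with medians of 0.30 and 0.22. Over all 12494 genes of that length 1559 and 1620 rose, with medians of −0.08 and −0.03. Sdhc, with a transcript of 1993 bases, was among the long genes that rose in both regions. With the trend of counts on transcript length removed in each library, 54 subunit genes rose in the hypothalamus and 47 in the midbrain, against 16.7% and 15.7% of all genes, and the medians came down to 0.85 and 0.62. The cause of this relation was not tested, nor was the part of length in the differences between kinds of subunit.

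**Figure D4:**
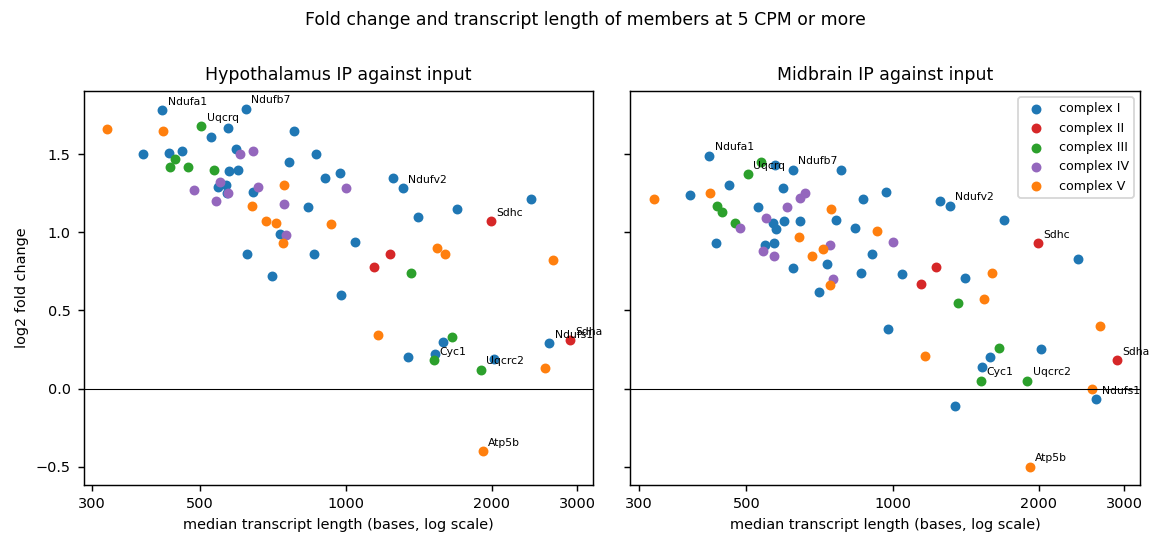
Log2 fold change of IP against input (vertical axis) against the median transcript length in bases (horizontal axis, log scale) for the 73 subunit genes of at least 5 CPM with a length, coloured by complex, in the hypothalamus (left) and midbrain (right). The points fall from left to right (Pearson's r of −0.752 and −0.725), from Ndufa1 and Uqcrq near the top to Atp5b at the bottom, with Sdhc and Ndufv2 above most genes of their length.

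Genes with and without a promoter pattern had similar medians, a difference that was not tested. Only genes of at least 5 CPM with a transcript length were compared, so weaker genes with a match, such as Atp5g2 and Atp5l, are left out. The 36 of them with a match for NRF1, ETS or YY1 had a median log2 fold change of 1.28 in the hypothalamus and 0.93 in the midbrain, with 31 and 27 that rose. The 25 with a promoter but no match had medians of 1.20 and 1.02, with 21 and 20 that rose. Atp5b, the gene with the lowest change among those of at least 5 CPM, has a YY1 match.

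Several subunits have a second gene with a narrower pattern across tissues. Cox4i2, Cox6b2, Cox7a1, Cox7b2 and Cox8b were weak here, each under 5 CPM on average. Cox6a2, which the symbol rule leaves out, is given further on. Shares are of the family's level per kilobase of transcript (mean ± SD, n = 3). Cox4i2, the isoform known from lung and from low oxygen, made up 0.0274 ± 0.0251% of Cox4i in hypothalamus IPs and 0.506 ± 0.247% in midbrain IPs. The heart and skeletal muscle isoform Cox7a1 made up 1.36 ± 0.429% of the Cox7a level in hypothalamus IPs and 1.82 ± 0.496% in the inputs. Cox6b2, known from testis, made up 1.17 ± 0.364% of Cox6b in hypothalamus IPs and 1.74 ± 0.902% in the inputs. Cox7b2 made up 0.426 ± 0.0818% in hypothalamus IPs, and Cox8b, a muscle and brown fat isoform, had between 0 and 37 counts per library. Cox8c was not tested, with 2 counts in a hypothalamus IP, 7 in a midbrain IP and 0 in all other libraries, where 3 counts, the limit that a count of 0 allows, came to between 0.0544 and 0.0716 CPM. Of the 3 genes that encode the same mature c subunit, Atp5g3 held 98.3 ± 0.757% of the level in hypothalamus IPs and 97.7 ± 0.114% in the inputs. These shares depend on the lengths used. For Atp5g1 that was the median over its transcripts, 2676 bases, and a shorter transcript would give Atp5g1 a larger share. Atp5g3 had 566, 572 and 542 CPM in the IPs against 245, 268 and 294 CPM in the inputs of the hypothalamus, with no overlap, and rose by 1.06 ± 0.12 (SE, adjusted p = 5.37e-05) and by 0.89 in the midbrain. Atp5g1 had 16.0, 38.8 and 45.6 CPM against 16.2, 21.2 and 19.6 CPM in the hypothalamus, where it reached 0.82 ± 0.33 (SE, adjusted p = 0.0795). Atp5g1 passed in the hypothalamus with the replicate number as a block (0.72, adjusted p = 0.0169) and without the libraries numbered 1 (1.05, adjusted p = 0.00270).

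Atp5g2 was the single subunit gene (1 of 81) with all 3 IPs below all 3 inputs, in both regions, where 27.3% and 27.8% of all genes were so. It had 0.302, 0.477 and 0.318 CPM in hypothalamus IPs and 1.09, 0.644 and 0.926 CPM in inputs, which are 15 to 52 counts, and its changes of −1.27 ± 0.59 (SE, adjusted p = 0.119) and −1.06 ± 0.59 (SE, adjusted p = 0.190) did not pass. DESeq2's Wald test gave an adjusted p of 0.0220 for it in the hypothalamus. Such levels are uncertain: 46.4% of the 50-base windows of the Atp5g2 transcript also occur in other genes, and reads that align in several places stayed out of the gene counts. The same holds for Atp5l (68.5% of windows, 0.121 to 0.497 CPM over the 12 libraries). In all, 12 of the 82 genes share 20% or more of their windows with other genes, and 10 of them rose in the hypothalamus and 9 in the midbrain. The 69 tested genes under that share had medians of 1.25 and 0.93, with 51 and 45 that rose. Another gene overlaps 35 of the 82, on the opposite strand for 27, such as Gabpa with Atp5j. Since no source gives the strand setting of the counting, reads of such partners cannot be told apart. Of the 46 tested genes without an overlap 36 rose in the hypothalamus and 33 in the midbrain.

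Hypothalamus and midbrain libraries of the same number ran on different lanes, so region and lane cannot be told apart within a number. For the difference between the regional effects (hypothalamus minus midbrain) 0 of 81 genes passed edgeR's quasi-likelihood test, where 0.0772% of all genes did. DESeq2 called 0 as well, against 1.23% of all genes. In edgeR's test 1190 of all 18128 genes and 1 of the 81 subunit genes had an unadjusted p under 0.05. That subunit gene was Ndufb11, a membrane-arm accessory subunit, with a difference of 0.49 ± 0.19 (SE, adjusted p = 0.622). The estimate was above 0 for 76 of 81 genes, against 8895 of all 18128. The subunit median was 0.24 against −0.01 over all genes, and leaving out 1 library moved the subunit median between 0.09 and 0.39. The errors leave room for differences of that size in single genes, since the difference for Ndufb7 was 0.39 ± 0.26 (SE) and that for Atp5b 0.10 ± 0.49 (SE).

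The 2 sides of this difference can be read from the direct comparisons, which use the same libraries. Between the inputs 0 of 81 genes passed, where 1.61% of all genes did, and DESeq2 called 0 against 4.32% of all genes. In edgeR's test 2 of 81 had an unadjusted p under 0.05, against 2032 of all 18128 genes. The median was −0.18 against 0.01 over all genes, and 7 of 81 estimates were above 0, against 9291 of 18128 over all genes. Leaving out 1 of the 6 inputs moved this median between −0.34 and −0.06. All 3 hypothalamus inputs lay below all 3 midbrain inputs for 11 of 81 genes and above for 0, against 10.2% and 11.9% of all genes. With the replicate number as a block 2 genes passed, Cox7b (−0.47, adjusted p = 0.0136) and Ndufa4 (−0.38, adjusted p = 0.0397), both lower in the hypothalamus input, where 3.18% of all genes were lower. Between the IPs the median was 0.04.

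Between the IPs 2 of 81 genes had an unadjusted p under 0.05 in edgeR's test, against 3288 of all 18128. After adjustment 1 of 81 passed, where 4.26% of all genes did and 2.21% were lower. It was Cox4i2 (chr2:152754173-152765037 in mm10, plus strand), lower in the hypothalamus. Its counts were 8, 16 and 0 in the hypothalamus IPs and 193, 94 and 115 in the midbrain IPs, or 0.161, 0.294 and 0 CPM against 4.10, 1.80 and 2.43 CPM. The groups did not overlap, and the fitted log2 fold change was −4.17 ± 1.03 (SE, adjusted p = 0.0418). The call is fragile: it passed in 1 of the 6 fits that left out 1 of these IPs, with adjusted p from 0.0383 to 0.110, and was lost without the libraries numbered 1 (−3.83, adjusted p = 0.159). The inputs went the same way, with 18, 8 and 3 counts in the hypothalamus and 42, 51 and 36 in the midbrain, a fitted change of −2.21 ± 0.96 (SE) at an adjusted p of 0.395. Endothelial and mural markers moved with it: the summed level of 7 such markers lay between 0.862 and 2.57 CPM in hypothalamus IPs and between 3.28 and 6.34 CPM in midbrain IPs, with Cldn5 and Slco1a4 at 0 in the hypothalamus IPs. They were not alone. Between the IPs 2 of these 7 markers, 4 of 7 oligodendrocyte, 1 of 7 microglia and 1 of 7 astrocyte markers were lower, and 0 of 4 ependymal ones. The medians were −2.30, −1.65, −1.45, −0.41 and −0.13. The part of any cell type in this result was not tested.

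Other genes of mitochondrial supply were read from lists. Over all genes 14.2% rose and 19.6% fell in the hypothalamus, and 14.0% rose and 19.9% fell in the midbrain. Of 43 assembly factors of the 5 complexes 27 rose in the hypothalamus and 23 in the midbrain, and the medians were 0.76 and 0.67. The highest was Uqcc2, an assembly factor of complex III, which went from 23.3 ± 6.66 to 93.5 ± 6.66 CPM in the hypothalamus (SD, n = 3). Of 76 mitochondrial ribosomal protein genes 49 and 47 rose (medians 0.78 and 0.69), led by Mrps12 with 1.63 and 1.52, and of 18 genes of protein import 13 and 12 rose (medians 0.89 and 0.89), with Timm13, an intermembrane chaperone, at 1.75 in the hypothalamus. Of 12 carriers and pores 9 and 7 rose, with Slc25a22, a glutamate carrier, highest at 1.14 and 1.11. Slc25a13, an aspartate and glutamate carrier, fell in the midbrain at under 4 CPM. Related genes that the symbol rule leaves out gave 6 of 9 in each region. Among them Cox6a2, the heart and muscle isoform, was 8.58-fold higher in the hypothalamus IP (27.9 ± 7.70 against 3.25 ± 2.27 CPM, SD, n = 3, adjusted p = 0.00947), while its midbrain log2 fold change of 1.98 did not pass (adjusted p = 0.0597).

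Lists of the pathways that feed the chain are read against the shares over all genes, 14.2% higher and 19.6% lower in the hypothalamus and 14.0% and 19.9% in the midbrain. Of 17 genes of the tricarboxylic acid cycle 4 rose and 1 fell in the hypothalamus, with 3 and 1 in the midbrain, and the medians were 0.26 and 0.08. The one that fell was Suclg2, the GTP-forming succinyl-CoA ligase subunit, with 1.28 ± 1.14 CPM in the hypothalamus IP and 5.52 ± 0.907 CPM in the input (SD, n = 3). Of 17 genes of glycolysis 5 rose and 2 fell in the hypothalamus and 2 and 2 in the midbrain. Aldoc, an aldolase that is also on the astrocyte list, fell by 1.55 and 1.60 on the log2 scale, and Eno1 fell at under 3 CPM. Among 15 regulators of mitochondrial biogenesis 0 rose and 2 fell in the hypothalamus, and 2 rose and 3 fell in the midbrain (medians −0.10 and −0.20). The share that fell was near that over all genes. Those that fell were Gabpa and Gabpb2, subunits of the ETS factor GABP, in both regions, and Ppargc1a in the midbrain (−0.62, adjusted p = 0.0283).

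Lists of other large complexes serve to place the subunits, again beside all genes, of which 14.2% and 14.0% rose and 19.6% and 19.9% fell. Of 76 cytosolic ribosomal protein genes, which are also short and highly transcribed, 7 rose and 3 fell in the hypothalamus and 5 rose and 3 fell in the midbrain, with medians of 0.10 and 0.15. Many of these genes have near-identical copies, so their counts are uncertain. Of 38 proteasome subunits 14 and 11 rose, with medians of 0.35 and 0.36. The difference between these lists and the oxidative phosphorylation genes was not tested.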

How the data were processed

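Per the submitters' processing notes, reads were aligned with STAR 2.0.0e to mm10 and the authors counted them per gene with HTSeq. The deposited values are raw counts. Annotation, strand setting and counting mode are not given in the sources used here. HTSeq's rows that name no gene were left out of library sizes and tests.

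Counts were scaled by TMM, filtered for low counts and fitted with edgeR 4.0.16 (limma 3.58.1, R 4.3.3) as 1 robust quasi-likelihood model of the 4 groups. P-values were adjusted by Benjamini-Hochberg over all 18128 genes, with a threshold of 0.05. The fit was tested on simulated data. DESeq2 1.42.0 was an alternative, as were other scalings, no filter, a length offset, a replicate block and leaving out each library.

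The members and gene lists were chosen with earlier results of these data known. Genes named individually were, per complex, the highest and lowest change among genes of at least 5 CPM, the most abundant per kilobase, the core subunits of complex I, isoform families and genes called between regions. Others named were chosen after their values were seen.

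Replicate numbers come from the labels. Same-numbered libraries deviated together with correlations of 0.155 to 0.324 (hypothalamus IP and input), 0.113 to 0.301 (IPs) and 0.141 to 0.379 (inputs). For midbrain IP and input the correlations were 0.189, 0.0754 and 0.157 for numbers 1, 2 and 3. The main fit did not use this pairing, and the replicate block was an alternative. Differences between libraries of the same number are given as a description. Positions and transcript lengths are from GENCODE M21, promoters from RefSeq GRCm38.p6. Of the complex I genes, 1 is counted in the totals but not reported here by name.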

Additional observations from a re-analysis of the deposited data

How the results depend on the processing

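The IP against input medians stayed above 0 in both regions under every alternative run, while the small median between IPs changed sign. Leaving out 1 of the 6 libraries compared gave, in the hypothalamus, 53 to 63 genes that rose (medians 1.03 to 1.33), and in the midbrain 46 to 54 (medians 0.80 to 1.05). Shares over all genes are not given for these fits. Of the genes that rose, 51 and 43 passed under every one of 16 settings, and the share over all genes is not given for this count either. The hypothalamus median was 1.01 with library size alone, 0.85 with the length offset and 0.84 with the replicate block and length offset, and the midbrain median was 0.62 under both length settings. In the hypothalamus 1 gene fell with DESeq2's test and 1 with the length offset, Atp5g2 in both, where 21.6% and 14.3% of all genes fell. The replicate block gave 64 genes that rose in the hypothalamus and 60 in the midbrain. With that block 19.5% and 20.3% of all genes rose, against 14.2% and 14.0% without it. Leaving out 1 library moved the median regional difference between 0.09 and 0.39, the median between IPs between −0.04 and 0.15 with 0 to 1 genes lower, and the median between inputs between −0.34 and −0.06. Between IPs the median was −0.08 with the length offset and −0.07 with the replicate block and length offset. In the latter 2 genes were lower (Cox4i2 and Ndufa4), against 7.03% of all genes, and 0 were lower without the libraries numbered 1, against 3.07%. Between inputs the median was −0.06 with library size alone. There 2 genes were lower with the replicate block and 4 with the replicate block and length offset, against 3.18% and 4.06% of all genes. The cause of these shifts was not tested. Of the 7 genes under 5 CPM none was called between IP and input by edgeR's test with TMM scaling. DESeq2's test called Atp5g2 and Cox7b2 in the hypothalamus, and the length offset called Atp5g2 there. The part of depth in this was not tested.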
